A study of Mus musculus with 48 samples.

Results

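The genes described here are the amino acid and neurotransmitter transporter genes of the solute carrier (Slc) families 1, 3, 6, 7, 36, 38 and 43, read across 13 sorted cell populations of the developing and adult mouse pancreas. They were taken by name. Every gene of these families whose symbol stood alone on at least 1 probe of the array was a member, and each was represented by its brightest probe over all arrays. This gave 63 members among 18194 genes, with 7 in family Slc1, 2 in Slc3, 21 in Slc6, 16 in Slc7, 5 in Slc36, 9 in Slc38 and 3 in Slc43. Of the 63, 60 were transporter genes and 3 were loci on the opposite strand that carry a transporter's name (Slc36a1os, Slc6a19os and Slc7a6os).

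RNA from FACS-purified cells was measured on 48 whole-genome Affymetrix expression arrays, with 3 to 5 arrays per population. All samples are labelled as CD-1 in background and all but the Neurog3-null cells as wild type, although each sort except that of duct cells relied on a fluorescent reporter. Cells of several embryos or animals were pooled, and P15 and 8-12 wk animals were male. The E15.5 Neurog3-null cells were GFP+ cells of Neurog3 eGFP/eGFP knock-in embryos. E15.5 Endocrine Progenitor, E15.5 Acinar and E15.5 Progenitor cells came from Neurog3-eGFP embryos, by GFP and by the surface markers CD133, CD49f and CD24. E11.5 Sox9 cells came from dorsal buds of Sox9-eGFP embryos, where eGFP outlasts Sox9 and so also marks some of its progeny. Alpha cells at P0 and 8-12 wk were Glucagon-Venus+, and beta cells at E15.5, E17.5, P0, P15 and 8-12 wk were MIP-GFP+, with GFP under the mouse insulin promoter. The 8-12 wk Duct Cell arrays were of CD133+ cells, and antibodies to Ter119 and CD45 were used to keep out blood cells. Stages are given as in the sample labels, where the study writes E11, E15, E17 and P1. Values are log2 signals, and a signal of 100 (6.64 on the log2 scale) was taken as the lower limit of measurement. Where 1 side of a difference lay at or under that limit, its size is not exact.

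Cells take up amino acids through carriers with overlapping substrates. Members of family Slc1 and most of Slc6 and Slc38 are driven by the sodium gradient and can concentrate their substrate, whereas many of Slc7 exchange one amino acid for another, several of them only when paired with a heavy subunit of family Slc3. Family Slc36 carries small amino acids with protons, and members of family Slc43 pass large neutral amino acids down their gradient. In islets amino acids such as arginine and glutamine stimulate hormone secretion, and in acinar cells the carriers feed the synthesis of digestive enzymes.

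The array medians lay between 6.58 and 6.88, and replicate arrays of a population correlated at 0.942 to 0.997 over all probes. On the members alone, all 48 arrays were most like the other arrays of their own population. Hormone probes were bright in both endocrine cell types, with Ins2 at 13.91 in 8-12 wk Alpha Cell and 14.65 in 8-12 wk Beta Cell arrays, whereas Pdx1, a beta cell factor, was at 8.32 and 11.86 in these. Markers of other cells were not spread evenly. The mean of 11 leukocyte markers was 11.98 in E15.5 Neurog3-null cells, 12.27 in 8-12 wk Duct Cell and 12.08 in 8-12 wk Beta Cell arrays, against 6.44 in E15.5 Endocrine Progenitor and 6.09 in 8-12 wk Alpha Cell arrays. The mean of 8 endothelial markers was 9.42 in P0 Alpha Cell, 10.09 in E17.5 Beta Cell and 10.91 in P0 Beta Cell arrays, but 5.56 in 8-12 wk Alpha Cell and 5.94 in 8-12 wk Beta Cell arrays. Duct markers were highest in duct cells (12.66), acinar markers in acinar cells (13.60), alpha markers in 8-12 wk Alpha Cell (13.34), beta markers in P15 Beta Cell (13.49) and endocrine progenitor markers in E15.5 Endocrine Progenitor arrays (12.92). The next highest means were 11.20 for duct markers (E15.5 Progenitor) and 13.28 for acinar markers (8-12 wk Duct Cell). They were 13.15 for alpha markers and 11.96 for endocrine progenitor markers (both E15.5 Beta Cell), and 13.40 for beta markers (8-12 wk Beta Cell). Neural and Schwann markers averaged 5.06 to 8.87 and erythroid markers 4.39 to 6.33 over the populations. Some of these values are given again in the comparisons below. In sorted bulk samples, fewer cells of a type and less RNA per cell cannot be told apart.

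Of the 63 members, 43 had a signal above 100 in at least 1 array and were tested, and 19 were above it in all 48 arrays. A member counted as higher or lower where the adjusted p of limma was under 0.05 and the difference was at least 2-fold. Per population, 27 to 32 members had a mean above 100 (42.9% to 50.8% of the 63), against 60.3% to 66.2% of all genes. The widest ranges between population means were those of Slc7a14 (8.14 on the log2 scale), Slc43a3 (7.61), Slc38a5 (6.996), Slc6a17 (6.80) and Slc38a1 (6.68). At the other end Slc7a1, the main cationic amino acid carrier of most cells, was above 12 everywhere, with means between 12.19 and 13.36. Slc3a2, the heavy subunit shared by several Slc7 exchangers, had means between 11.09 and 12.38. Of the 43 tested members, Slc1a2, Slc3a2, Slc7a1, Slc7a4, Slc7a9 and Slc7a10 passed in none of the 10 comparisons between populations. Some dim members entered the test through a single population and so had to be high there. Slc7a3 was above 100 only in 8-12 wk Duct Cell replicate 3, and Slc6a15 and Slc6a19 in 2 arrays each, all of 8-12 wk Beta Cell. Their differences are given as values, although the counts of called members below include them.

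**Figure D1:**
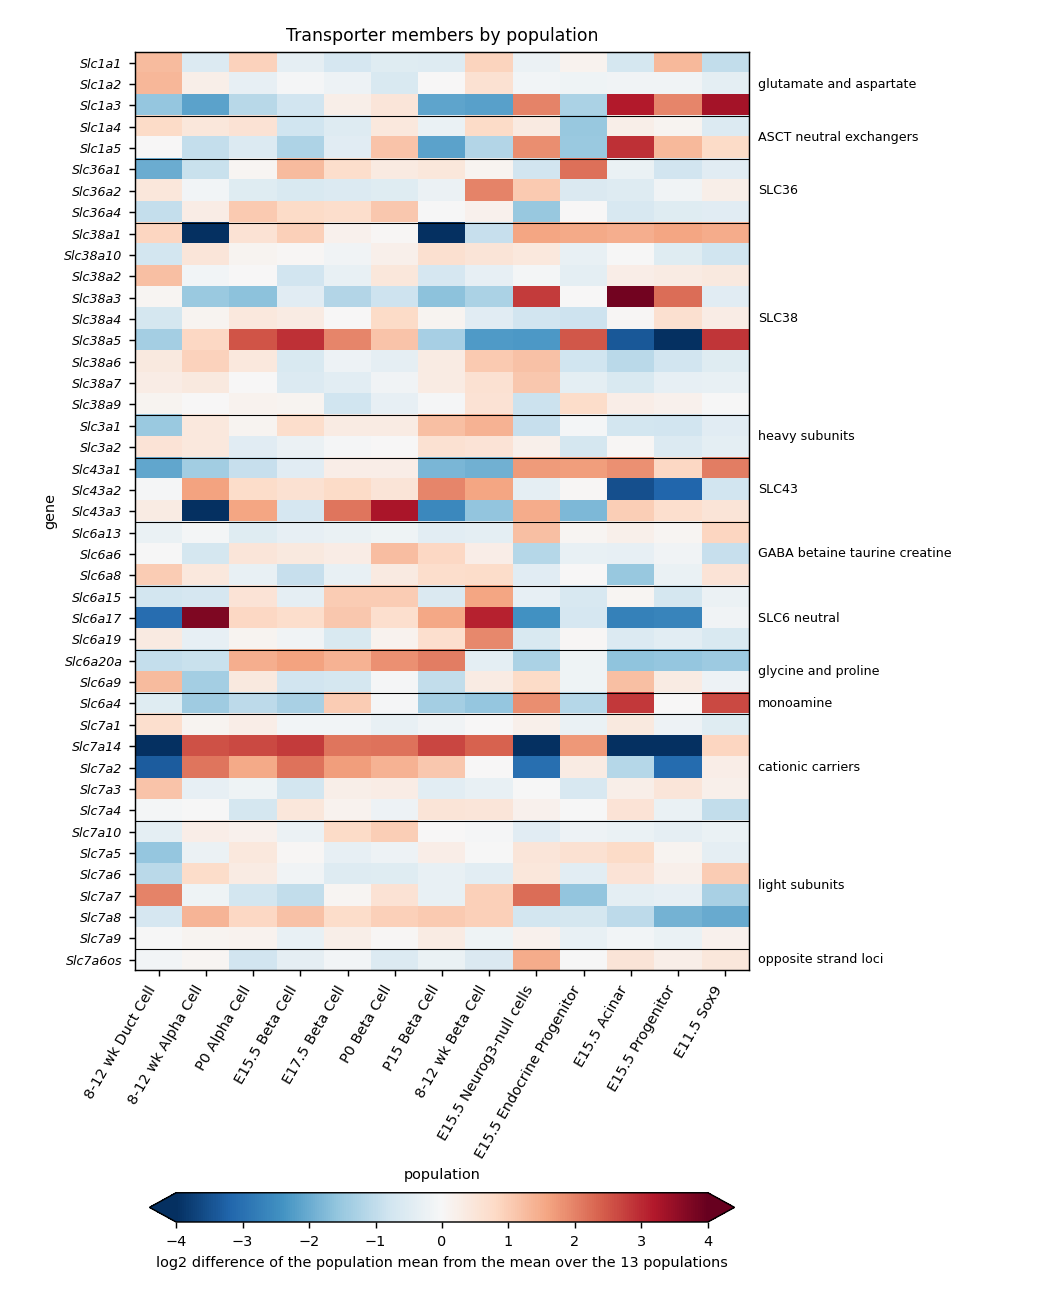
Heat map of the 43 tested members (rows, grouped by role) in the 13 populations (columns). Colour gives the log2 difference of a population mean (3 to 5 arrays) from the mean of that gene over the populations, and colours end at a difference of 4 either way. Slc7a14 (range of means 8.14) and Slc6a17 (6.80) are high in islet cells and low in duct, acinar, E15.5 Progenitor and Neurog3-null cells.

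The first comparison asks how the carriers differed between E15.5 Endocrine Progenitor cells, which make Neurog3, and E15.5 Progenitor cells. Of the 43 members, 8 were higher (10.7% of the 14405 genes tested were) and 10 were lower (11.8% of genes). The 43 members had a median difference of -0.04, beside -0.03 over all genes. The higher ones were led by Slc38a5, a sodium-coupled carrier of glutamine, asparagine and histidine, and Slc7a14, a lysosomal relative of the cationic carriers. The lower ones were led by the glutamate carrier Slc1a3 and the neutral exchanger Slc1a5.

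Slc38a5 was at 13.38, 13.19 and 12.87 in the 3 E15.5 Endocrine Progenitor arrays, and at 5.63, 7.89 and 6.24 in the 3 E15.5 Progenitor arrays. The groups stood far apart, with a difference of 6.56 ± 0.45 (SE; limma, adjusted p = 5.12e-15). Slc7a14 was at 11.03, 10.93 and 10.55 in endocrine progenitors against 4.25, 5.12 and 4.51 in E15.5 Progenitor arrays, a difference of 6.21 ± 0.21 (limma, adjusted p = 4.27e-24). Every E15.5 Progenitor array of Slc7a14 lay under the limit of measurement. Slc7a2, a carrier of arginine, lysine and ornithine, was at 10.53, 10.33 and 9.83 in endocrine progenitors against 6.61, 7.26 and 6.58 in E15.5 Progenitor arrays (difference 3.41 ± 0.32). Slc43a2 (LAT4), which lets branched-chain amino acids and phenylalanine cross the membrane, was at 10.80, 10.95 and 10.31 against 7.69, 7.45 and 7.26 in the same groups (difference 3.22 ± 0.25). These 4 genes were picked for arrays that did not overlap, so their lack of overlap is no further result. Slc36a1, a proton-coupled carrier of small amino acids found at lysosomes, rose by 2.96 ± 0.22 and had its highest mean of the 13 populations in endocrine progenitors (10.89). Slc6a17, a neutral amino acid carrier of synaptic vesicles, rose by 1.95 ± 0.21, the proline carrier Slc6a20a, under the limit of measurement in every array of both groups, by 1.36 ± 0.42 and the large neutral exchanger Slc7a8 by 1.20 ± 0.31. Where a gene had several tested probes, all 3 of Slc43a2 and both of Slc7a14 passed, but 2 of 4 for Slc7a2 and 1 of 3 for Slc6a17 (0.67 with the mean of its probes). Without endocrine progenitor replicate 1, Slc6a20a did not pass (1.18, adjusted p = 0.0541 by limma).

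Among the members that fell, Slc1a3 (GLAST), a glutamate and aspartate carrier, was at 4.64, 4.58 and 6.34 in E15.5 Endocrine Progenitor arrays against 8.32, 8.73 and 8.21 in E15.5 Progenitor arrays (difference -3.23 ± 0.36; limma, adjusted p = 2.16e-09). Slc1a5 (ASCT2), an exchanger of glutamine and other neutral amino acids, was at 5.69, 5.81 and 7.01 against 8.82, 9.49 and 8.51 (difference -2.77 ± 0.35). Slc43a3, which is known as a carrier of purine bases rather than of amino acids, was at 6.10, 5.80 and 6.999 against 8.69, 8.56 and 9.04 (difference -2.46 ± 0.40). Slc38a3, the glutamine carrier SNAT3, was at 6.87, 7.23 and 8.39 against 9.76, 10.43 and 8.90 (difference -2.20 ± 0.40). In all 4 genes endocrine progenitor replicate 3 was the highest of its group, yet below every E15.5 Progenitor array. Acinar markers were also spread in the endocrine progenitor arrays, with a mean of 7 markers of 9.01 to 11.61, against 11.23 to 13.003 in E15.5 Progenitor arrays. Of 8 mesenchyme markers 6 were higher in endocrine progenitors, with a mean of 8.70, against 6.79 in E15.5 Progenitor arrays. The part of either cell type in the higher or lower members was not tested. Slc1a4 (ASCT1), an exchanger of alanine, serine and cysteine, fell by 1.63 ± 0.22 and Slc38a4, a carrier of neutral and cationic amino acids, by 1.45 ± 0.20. Slc7a7, Slc6a4, Slc1a1 and Slc7a3 fell by 1.10 to 1.27, and the arrays of Slc6a4 overlapped. Every array of Slc7a3 in both groups lay under the limit of measurement. The methods' t-test gave adjusted p-values of 0.0557 for Slc7a7, 0.0664 for Slc38a3 and 0.211 for Slc6a4.

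Of the members above, 6 were both higher in endocrine progenitors than in E15.5 Progenitor cells and lower in Neurog3-null cells than in endocrine progenitors (Slc36a1, Slc38a5, Slc6a17, Slc6a20a, Slc7a14 and Slc7a2). All values of Slc6a20a in these 3 groups lay under the limit of measurement, and its difference in Neurog3-null cells was not called with array weights (-0.57) or the methods' t-test (adjusted p = 0.0541). Slc6a17 did not reach 2-fold in either comparison with the mean of its probes (0.67 and -0.57). The 2 comparisons share the 3 endocrine progenitor arrays, so high values there move both toward a call. How many of all genes had both calls is not given here. The promoters of these 6 members are shown because Neurog3 acts by binding E-boxes. Among RefSeq's promoters for GRCm38.p6, 46 of the 63 members had at least 1 start (67 starts in all), and 5 of these 6 did, Slc7a2 being the exception. The 250 bases before the start are given 5′ to 3′, with the E-box letters CAGATG in capitals, or CATCTG where they lie on the other strand.
Slc38a5, chrX:8271131-8271380, plus strand: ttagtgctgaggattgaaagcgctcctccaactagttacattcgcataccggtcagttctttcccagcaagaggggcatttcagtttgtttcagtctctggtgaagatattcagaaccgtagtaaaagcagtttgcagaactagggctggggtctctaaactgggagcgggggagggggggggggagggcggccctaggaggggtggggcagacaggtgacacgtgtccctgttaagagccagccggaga
Slc7a14, chr3:31310320-31310569, minus strand: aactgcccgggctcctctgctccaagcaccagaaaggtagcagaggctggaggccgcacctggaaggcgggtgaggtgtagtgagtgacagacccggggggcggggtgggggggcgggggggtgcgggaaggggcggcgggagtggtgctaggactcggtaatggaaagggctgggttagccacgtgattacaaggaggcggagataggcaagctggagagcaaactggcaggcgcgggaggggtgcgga
Slc36a1, chr11:55204090-55204339, plus strand: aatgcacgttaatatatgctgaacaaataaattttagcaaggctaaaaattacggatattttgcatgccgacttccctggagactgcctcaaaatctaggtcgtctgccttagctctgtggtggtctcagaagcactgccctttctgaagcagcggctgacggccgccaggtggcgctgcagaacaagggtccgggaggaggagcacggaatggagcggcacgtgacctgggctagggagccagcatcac
Slc6a17, first start, chr3:107500741-107500990, minus strand: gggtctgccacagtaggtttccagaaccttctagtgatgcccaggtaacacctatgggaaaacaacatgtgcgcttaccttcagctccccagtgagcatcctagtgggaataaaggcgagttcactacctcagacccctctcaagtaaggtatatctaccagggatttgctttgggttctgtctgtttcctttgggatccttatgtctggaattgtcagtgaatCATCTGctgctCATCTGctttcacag
Slc6a17, second start, chr3:107518019-107518268, minus strand: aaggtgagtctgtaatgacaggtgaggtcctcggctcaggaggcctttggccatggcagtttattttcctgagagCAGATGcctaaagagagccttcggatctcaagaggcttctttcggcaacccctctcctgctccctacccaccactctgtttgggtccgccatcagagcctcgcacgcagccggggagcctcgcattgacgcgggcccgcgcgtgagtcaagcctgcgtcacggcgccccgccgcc
Slc6a20a, chr9:123678833-123679082, minus strand: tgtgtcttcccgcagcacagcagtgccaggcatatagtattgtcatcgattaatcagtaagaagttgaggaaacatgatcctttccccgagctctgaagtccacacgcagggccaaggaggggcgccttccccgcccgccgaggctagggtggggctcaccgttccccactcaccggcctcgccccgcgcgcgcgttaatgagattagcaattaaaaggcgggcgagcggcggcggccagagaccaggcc
CAGATG, a form of E-box bound by factors of the Neurog and Neurod families, was found before both starts of Slc6a17 and in none of the other 4 windows. Other E-boxes of the form CANNTG were not searched and stand unmarked, as in the windows of Slc38a5, Slc7a14 and Slc36a1. Over all 32851 promoters 14.4% held CAGATG on either strand in the same window, and 16.4% of the 67 member promoters did. It was present in 10 members, among them Slc7a8 and Slc43a1. The letters TGATGNAA, the core of the element through which Atf4 acts on amino acid response genes, stood in 3.45% of all promoters and in 5.97% of those of members, namely in Slc6a21, Slc7a11 and Slc7a7. Both motifs were searched on both strands, both hold the letters GATG, and overlapping matches were not removed.

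The next comparison sets E15.5 Neurog3-null cells against E15.5 Endocrine Progenitor cells. The Neurog3 probe itself read 10.97, 10.29, 10.70 and 10.32 in the null arrays and 13.34, 13.41 and 13.44 in the endocrine progenitor arrays, a difference of -2.83 ± 0.35. It read 11.64, 11.43 and 11.98 in E15.5 Progenitor arrays. Where it lies relative to the replaced sequence was not examined. Of the 43 members, 12 were higher (18.7% of genes) and 8 were lower (14.2% of genes). Over the 43 the median difference was 0.20, and over all genes tested 0.10. Leukocyte markers differed in the same direction as the higher members, since 11 of 11 had a mean above 100 in null cells and 4 of 11 in endocrine progenitors, and the mean of the list was 11.57 to 12.48 in null arrays and 6.33 to 6.50 in endocrine progenitor arrays. Acinar markers averaged 12.60 in null cells and 10.15 in endocrine progenitors, endothelial markers 6.51 and 5.02, and mesenchyme markers 7.71 and 8.70. The 4 erythroid markers averaged 6.33 in null cells, with 1 above 100, and 5.54 in endocrine progenitors, with 2 above 100. The part of these cell types in the differences below was not tested.

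Slc7a14 was at 3.79, 4.38, 4.19 and 4.12 in the Neurog3-null arrays, all under the limit of measurement, against 11.03, 10.93 and 10.55 in endocrine progenitors (difference -6.72 ± 0.20; limma, adjusted p = 1.47e-26). Slc38a5 was at 8.46, 8.60, 8.56 and 7.89 in null arrays against 13.38, 13.19 and 12.87 in endocrine progenitors (difference -4.77 ± 0.42). Slc7a2 was at 6.44, 6.52, 7.30 and 7.30 against 10.53, 10.33 and 9.83 (difference -3.34 ± 0.30). Slc36a1 was at 8.67, 7.78, 7.84 and 7.50 against 10.93, 10.68 and 11.07 (difference -2.95 ± 0.20). These 4 genes too were picked for groups that did not overlap. Slc6a17 fell by 1.74 ± 0.20, Slc38a9, which senses lysosomal arginine, by 1.57 ± 0.36, Slc36a4 by 1.52 ± 0.27 and Slc6a20a by 1.09 ± 0.39. For Slc38a9 only 1 of its 6 tested probes passed, and the mean of them gave -0.19. Slc43a2 and Slc7a8, which were also higher in endocrine progenitors than in E15.5 Progenitor cells, did not pass here. Slc43a2 averaged 10.26 in null cells and 10.69 in endocrine progenitors (difference -0.42 ± 0.24, adjusted p = 0.13 by limma), and Slc7a8 averaged 7.79 and 7.83 (adjusted p = 0.913 by limma). Both comparisons use the same 3 endocrine progenitor arrays.

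Slc7a7, the light subunit of the system that exports cationic amino acids, was at 11.08, 10.14, 9.81 and 10.06 in null arrays against 6.32, 6.05 and 7.005 in endocrine progenitors (difference 3.81 ± 0.31; limma, adjusted p = 2.91e-13). It is also known from macrophages. It had its highest means in null cells (10.27) and in duct cells (10.04), and over the 13 population means it followed the leukocyte markers with r = 0.86, given as a description. Ptprc, the gene of CD45, was at 10.66 in null cells, 10.59 in duct cells and 3.48 in endocrine progenitors. Slc1a5 was at 8.67, 10.13, 9.39 and 9.92 in null arrays against 5.69, 5.81 and 7.01 in endocrine progenitors (difference 3.35 ± 0.32). Slc43a3 was at 9.41, 9.61, 9.90 and 9.43 against 6.10, 5.80 and 6.999 (difference 3.29 ± 0.37). Slc1a3 was at 8.22, 8.59, 8.43 and 8.58 against 4.64, 4.58 and 6.34 (difference 3.27 ± 0.34; 0.96 with the mean of its probes). In all 3 genes every null array was above every endocrine progenitor array, although only 1 of 2 tested probes passed for Slc1a5 and for Slc1a3. The serotonin carrier Slc6a4 rose by 3.02 ± 0.36, Slc38a3 by 2.79 ± 0.38, Slc38a6 by 1.97 ± 0.25 and Slc1a4 by 1.89 ± 0.21. Slc36a2, Slc7a6os, Slc38a7 (a lysosomal glutamine carrier) and the GABA carrier Slc6a13 rose by 1.12 to 1.63. Over the 13 population means Slc7a6os followed the erythroid markers with r = 0.72 and Slc6a13 with r = 0.68, given as a description. The methods' t-test gave adjusted p-values of 0.114 for Slc36a2 and 0.0617 for Slc6a13, and Slc7a6os was at 0.78 with the mean of its probes.

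**Figure D2:**
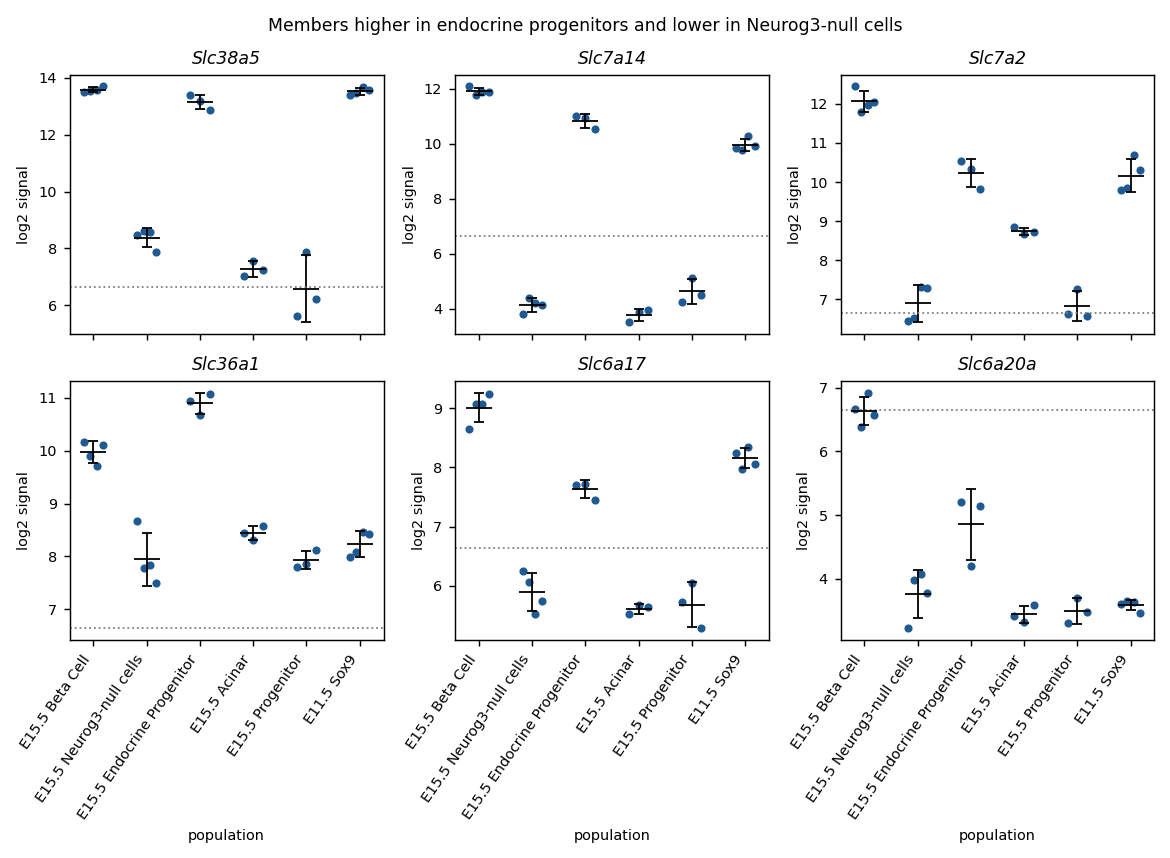
Log2 signal of 6 members in the arrays of 6 populations (points, 3 or 4 arrays per population; bars, mean and SD; dotted line, the limit of 100). Slc38a5 and Slc7a14 are high in E15.5 Beta Cell, E15.5 Endocrine Progenitor and E11.5 Sox9 arrays, with means of 13.15 and 10.84 in endocrine progenitors, and lower in Neurog3-null cells (8.38 and 4.12).

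Between E15.5 Progenitor and E11.5 Sox9 cells 2 members were higher (6.25% of genes) and 8 were lower (7.3% of genes). Over the 43 the median difference was -0.08, and over all genes tested -0.01. Slc38a5 was at 5.63, 7.89 and 6.24 in E15.5 Progenitor arrays against 13.39, 13.48, 13.68 and 13.56 in E11.5 Sox9 arrays (difference -6.94 ± 0.42; limma, adjusted p = 2.85e-16). Slc7a14 was at 4.25, 5.12 and 4.51 against 9.86, 9.77, 10.30 and 9.90 in these groups (difference -5.33 ± 0.20). Slc7a2 was at 6.61, 7.26 and 6.58 against 9.80, 9.84, 10.70 and 10.30 (difference -3.34 ± 0.30). All 3 genes were far above the E15.5 Progenitor level in every E11.5 Sox9 array. The E11.5 Sox9 cells also carried endocrine transcripts, since Gcg was at 8.28 in E15.5 Progenitor and 13.68 in E11.5 Sox9 cells and Neurod1 at 7.08 and 11.67, and the part of endocrine cells in these levels was not tested. Slc6a4, which takes up serotonin, was at 5.63, 6.65 and 4.71 in E15.5 Progenitor arrays against 8.34, 8.40, 8.16 and 8.25 in E11.5 Sox9 arrays (difference -2.63 ± 0.36). Slc6a17 fell by 2.48 ± 0.20, Slc43a2 by 2.40 ± 0.24, Slc1a3 by 1.37 ± 0.34 and Slc43a1 (LAT3, another carrier of branched-chain amino acids) by 1.21 ± 0.26. With the mean of their probes Slc6a17 (-0.85) and Slc1a3 (-0.76) were under the 2-fold limit. The glutamine carrier Slc38a3 and the glutamate carrier Slc1a1 were the 2 higher members. Slc38a3 was at 9.76, 10.43 and 8.90 in E15.5 Progenitor arrays against 7.05, 7.07, 6.80 and 7.14 in E11.5 Sox9 arrays (difference 2.68 ± 0.38). Slc1a1 was at 7.33, 7.51 and 7.54 against 4.90, 5.42, 5.42 and 5.03 (difference 2.27 ± 0.36). Both genes were picked for groups that did not overlap.

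Between E15.5 Acinar and E15.5 Progenitor cells 5 members were higher (4.63% of genes) and 2 were lower (7.06% of genes). The median difference was 0.10 for the members and -0.02 for all genes. Slc6a4 was at 8.34, 8.56 and 8.56 in acinar arrays against 5.63, 6.65 and 4.71 in E15.5 Progenitor arrays (difference 2.83 ± 0.38; limma, adjusted p = 4.54e-07). Slc38a3 had its highest mean of all populations in acinar cells, at 11.38, 11.42 and 11.21 against 9.76, 10.43 and 8.90 in E15.5 Progenitor arrays (difference 1.64 ± 0.40). Slc1a5 did too, at 10.70, 10.53 and 10.50 against 8.82, 9.49 and 8.51 (difference 1.64 ± 0.35). Acinar arrays were close to each other in these 3 genes, while the E15.5 Progenitor arrays were spread. Slc7a2 was at 8.84, 8.67 and 8.72 in acinar arrays against 6.61, 7.26 and 6.58 (difference 1.92 ± 0.32), and Slc1a3 rose by 1.22 ± 0.36. Slc1a1 was at 5.19, 5.37 and 5.86 in acinar arrays against 7.33, 7.51 and 7.54 (difference -1.99 ± 0.38). The creatine carrier Slc6a8 was at 8.56, 9.11 and 8.72 against 10.04, 9.83 and 10.32 (difference -1.27 ± 0.21). With the mean of a gene's probes 3 members passed, and Slc1a3 (0.54), Slc7a2 (0.59) and Slc6a8 (-0.94) were under the 2-fold limit. Slc1a1 was not tested in that setting. The methods' t-test gave adjusted p-values of 0.0568 for Slc6a4 and 0.0948 for Slc38a3. Endothelial markers averaged 9.21 in acinar and 5.30 in E15.5 Progenitor arrays, and their part was not tested.

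E15.5 Beta Cell arrays differed from E15.5 Endocrine Progenitor arrays mostly upward, with 7 members higher (6.69% of genes) and 1 lower (4.57% of genes). The median difference was 0.17 for the members and 0.01 for all genes. Slc7a8 (LAT2), an exchanger of large and small neutral amino acids, was at 9.47, 9.18, 10.25 and 9.84 in E15.5 Beta Cell arrays against 7.999, 7.93 and 7.57 in endocrine progenitors (difference 1.85 ± 0.29; limma, adjusted p = 4.63e-06). Slc7a2 was at 12.45, 11.80, 11.98 and 12.04 against 10.53, 10.33 and 9.83 (difference 1.84 ± 0.30). Slc6a17 was at 8.65, 9.08, 9.08 and 9.25 against 7.71, 7.73 and 7.45 (difference 1.38 ± 0.20; 0.73 with the mean of its probes, under the 2-fold limit). In all 3 genes every beta cell array was above every endocrine progenitor array. Slc38a4 rose by 1.16 ± 0.19 (0.998 with the mean of its probes), Slc43a3 by 1.13 ± 0.37 with overlapping arrays, Slc6a20a by 1.78 ± 0.39 and Slc7a14 by 1.08 ± 0.20. Slc7a14 thereby had its highest mean of the 13 populations in E15.5 beta cells (11.91). The single member that fell was Slc43a1, at 5.82, 4.95, 5.46 and 5.84 in E15.5 Beta Cell arrays against 7.69, 7.46 and 7.83 in endocrine progenitors (difference -2.14 ± 0.26), with all beta cell values under the limit of measurement. For Slc43a3 the methods' t-test gave an adjusted p of 0.108, and with array weights Slc7a14 was at 0.95. Markers of 3 other cell types were also higher in the beta cell arrays. Of 11 leukocyte markers 7 were higher, with a mean of 7.97 in E15.5 Beta Cell and 6.44 in endocrine progenitor arrays. Of 8 endothelial markers 6 were higher (means 6.65 in beta cell and 5.02 in endocrine progenitor arrays), and of 8 mesenchyme markers 5 were (10.22 and 8.70). Their part was not tested.

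Slc6a20a, a sodium-coupled carrier of proline and related imino acids, was above 100 in 11 of 48 arrays, all of islet cells between E15.5 and P15. In E15.5 Beta Cell arrays it was at 6.66, 6.39, 6.92 and 6.57, against 5.21, 4.21 and 5.14 in E15.5 Endocrine Progenitor arrays (difference 1.78 ± 0.39; limma, adjusted p = 0.000691). The order of its means was P15 Beta Cell (7.08), P0 Beta Cell (6.86), E15.5 Beta Cell (6.63), P0 Alpha Cell (6.49), E17.5 Beta Cell (6.42), E15.5 Endocrine Progenitor (4.85), 8-12 wk Beta Cell (4.66), 8-12 wk Alpha Cell (4.14), 8-12 wk Duct Cell (4.08), E15.5 Neurog3-null cells (3.76), E11.5 Sox9 (3.59), E15.5 Progenitor (3.49) and E15.5 Acinar (3.44). Of the 12 neighbouring pairs in that order only 1 did not overlap, E17.5 Beta Cell (5.61 to 6.94) and E15.5 Endocrine Progenitor (4.21 to 5.21). The P15 Beta Cell arrays were the most spread, at 6.70, 5.54, 8.21 and 7.88. In 8-12 wk Alpha Cell arrays it was at 4.27, 5.05, 3.88, 3.97 and 3.53, against 6.78, 6.45, 6.21 and 6.51 in P0 Alpha Cell arrays (difference -2.35 ± 0.34). In 8-12 wk Beta Cell arrays it was at 5.46, 4.74, 4.63 and 3.79, against 7.03, 6.76 and 6.78 in P0 Beta Cell arrays (difference -2.20, limma, adjusted p = 1.28e-05). The 2 falls differed by -0.15 ± 0.52, alpha minus beta (adjusted p = 0.855 by limma). The members whose population means were most like those of Slc6a20a were the taurine carrier Slc6a6 (r = 0.833 over the 13 means) and Slc36a4 (r = 0.781). Its near relative Slc6a20b was not above 100 in any array.

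Postnatal beta cells (the mean of the P15 and 8-12 wk populations) were compared with fetal ones (the mean of E15.5, E17.5 and P0). Of the 43 members, 6 were higher (6.37% of genes) and 8 were lower (14.8% of genes), 14 in all. The 43 members had a median difference of 0.05, beside -0.05 over all genes. Slc38a5 was at 13.49, 13.55, 13.58 and 13.70 at E15.5, at 12.17, 13.03 and 12.71 at E17.5, at 11.67, 11.77 and 11.99 at P0, at 10.32, 9.13, 8.68 and 9.27 at P15 and at 8.75, 8.07, 8.99 and 7.79 at 8-12 wk. Each stage mean was lower than the one before, and the postnatal difference was -3.80 ± 0.26 (limma, adjusted p = 2.37e-15). Slc38a1 (SNAT1), a sodium-coupled glutamine and alanine carrier, was at 12.43, 12.56, 12.21 and 12.25 at E15.5, at 11.71, 11.66 and 11.42 at E17.5, at 11.35, 11.63 and 11.44 at P0, at 8.42, 6.63, 5.99 and 7.83 at P15 and at 10.21, 10.49, 10.63 and 10.70 at 8-12 wk. The P15 arrays were the lowest, the adult arrays lay between those of P15 and P0, and the postnatal difference was -2.95 ± 0.20. Leukocyte markers averaged 8.22 at P15 and 12.08 at 8-12 wk, and their part in the adult Slc38a1 signal was not tested.

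Slc43a2 was at 10.90, 11.09, 11.53 and 11.48 at E15.5, at 11.12, 11.71 and 11.34 at E17.5, at 11.54, 11.04 and 10.89 at P0, at 12.21, 12.53, 12.84 and 12.71 at P15 and at 12.37, 12.37, 12.29 and 11.80 at 8-12 wk. It was the 1 member higher after birth without overlap (difference 1.12 ± 0.15). Slc6a17 rose by 1.498 ± 0.12, the neutral amino acid carrier Slc6a19 by 1.502 ± 0.22, Slc36a2 by 1.42 ± 0.26, Slc38a6 by 1.09 ± 0.15 and Slc6a8 by 1.01 ± 0.12, all with overlapping arrays. Slc6a19 was above 100 only in 2 arrays of 8-12 wk Beta Cell and was tested only through them, so its value is a description. Without any 1 of 7 arrays Slc6a8 was at 0.95 to 0.9995, under the 2-fold limit. Slc1a3 was at 6.03, 5.85, 5.64 and 5.30 at E15.5, at 7.34, 6.12 and 6.67 at E17.5, at 6.35, 7.04 and 7.42 at P0, at 4.80, 4.24, 4.22 and 4.19 at P15 and at 4.23, 3.88, 4.93 and 4.11 at 8-12 wk (difference -2.13 ± 0.21). Slc43a1 was at 5.82, 4.95, 5.46 and 5.84 at E15.5, at 6.61, 5.91 and 6.21 at E17.5, at 6.27, 6.08 and 6.33 at P0, at 3.34, 4.23, 4.67 and 4.37 at P15 and at 4.18, 4.12, 3.98 and 3.89 at 8-12 wk (difference -1.90 ± 0.17). Every postnatal array of these 2 genes was below every fetal one, and all their arrays but 4 of Slc1a3 lay under the limit of measurement.

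Slc7a2 fell by 1.20 ± 0.19, Slc6a4 by 1.33 ± 0.22 and Slc1a5 by 1.48 ± 0.20 between fetal and postnatal beta cells. Slc43a3 fell by 3.66 ± 0.23, but it was lower at E15.5 (7.94, 6.94, 7.61 and 7.23) than at E17.5 (10.61, 9.90 and 10.20) and P0 (11.25, 11.39 and 11.46), and the E15.5 and postnatal arrays overlapped. Endothelial markers averaged 6.65 at E15.5, 10.09 at E17.5, 10.91 at P0, 6.12 at P15 and 5.94 at 8-12 wk. Over the 13 population means Slc43a3 followed the endothelial markers with r = 0.70 and the mesenchyme markers with r = 0.67, given as a description. The part of either was not tested. All 8 endothelial and all 8 mesenchyme markers were lower in postnatal cells, with the mesenchyme mean at 5.99 at P15 and 7.49 at 8-12 wk, against 10.22 at E15.5. Between P15 and E15.5 Beta Cell arrays alone, 9 members passed, 8 of them among the 14. These arrays are also part of the larger comparison, and the share of all genes that passed is not given. Leukocyte (8.22 at P15 and 7.97 at E15.5) and endothelial markers (6.12 and 6.65) were closer there, but mesenchyme markers (5.99 and 10.22) were not, and their part was not tested. In this comparison, chosen after the data were seen, Slc38a1 fell by 5.14 ± 0.29, Slc38a5 by 4.23 ± 0.39 and Slc43a3 by 1.90 ± 0.34, and Slc43a2 rose by 1.32 ± 0.22. The other 6 of the 14 did not pass in it, Slc6a17 (0.85), Slc6a19 (0.81), Slc36a2 (0.36), Slc38a6 (0.95), Slc1a5 (-0.91) and Slc6a4 (-0.05). With the mean of a gene's probes 8 members passed between postnatal and fetal cells, and Slc43a2 (0.89), Slc6a8 (0.84), Slc38a6 (0.61), Slc7a2 (-0.19), Slc1a3 (-0.42) and Slc1a5 (-0.80) were under the 2-fold limit.

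In alpha cells 1 member was higher at 8-12 wk than at P0 (6.87% of genes) and 9 were lower (15.7% of genes). Over the 43 the median difference was -0.13, and over all genes tested -0.03. Slc6a17 was at 12.06, 12.23, 12.25, 11.93 and 11.79 in 8-12 wk Alpha Cell arrays against 8.92, 9.51, 8.99 and 9.15 in P0 Alpha Cell arrays (difference 2.91 ± 0.17; limma, adjusted p = 8.78e-17). Its mean in adult alpha cells (12.05) was the highest of the 13 populations. Slc43a3 was at 4.004, 3.34, 3.83, 3.98 and 3.62 in 8-12 wk Alpha Cell arrays against 10.19, 9.58, 9.57 and 9.31 at P0 (difference -5.91 ± 0.33), beside endothelial markers of 5.56 and 9.42, whose part was not tested. Slc38a1 was at 7.29, 5.58, 6.12, 6.61 and 6.005 against 12.22, 11.63, 12.08 and 12.09 (difference -5.69 ± 0.28). For both genes every adult array was more than 4 log2 units below every P0 array. Slc6a9 (GlyT1), the glycine carrier, was at 9.21, 8.02, 8.12, 7.62 and 8.42 against 10.24, 9.44, 9.88 and 10.64 (difference -1.77 ± 0.31; -0.81 with the mean of its probes). Slc6a20a fell by 2.35 ± 0.34, Slc38a5 by 1.67 ± 0.37, Slc1a1 by 1.47 ± 0.32, the neutral amino acid carrier Slc6a15 by 1.22 ± 0.21, the taurine carrier Slc6a6 by 1.18 ± 0.16 and Slc1a3 by 1.03 ± 0.30, the last with overlapping arrays. Every alpha cell array of Slc6a15 lay under the limit of measurement. With the mean of their probes Slc6a6 was at -0.76 and Slc1a3 at -0.02, and the methods' t-test gave Slc1a3 an adjusted p of 0.0699. Mesenchyme markers averaged 5.74 at 8-12 wk and 11.26 at P0, and leukocyte markers 6.09 and 8.14. Their part was not tested.

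**Figure D3:**
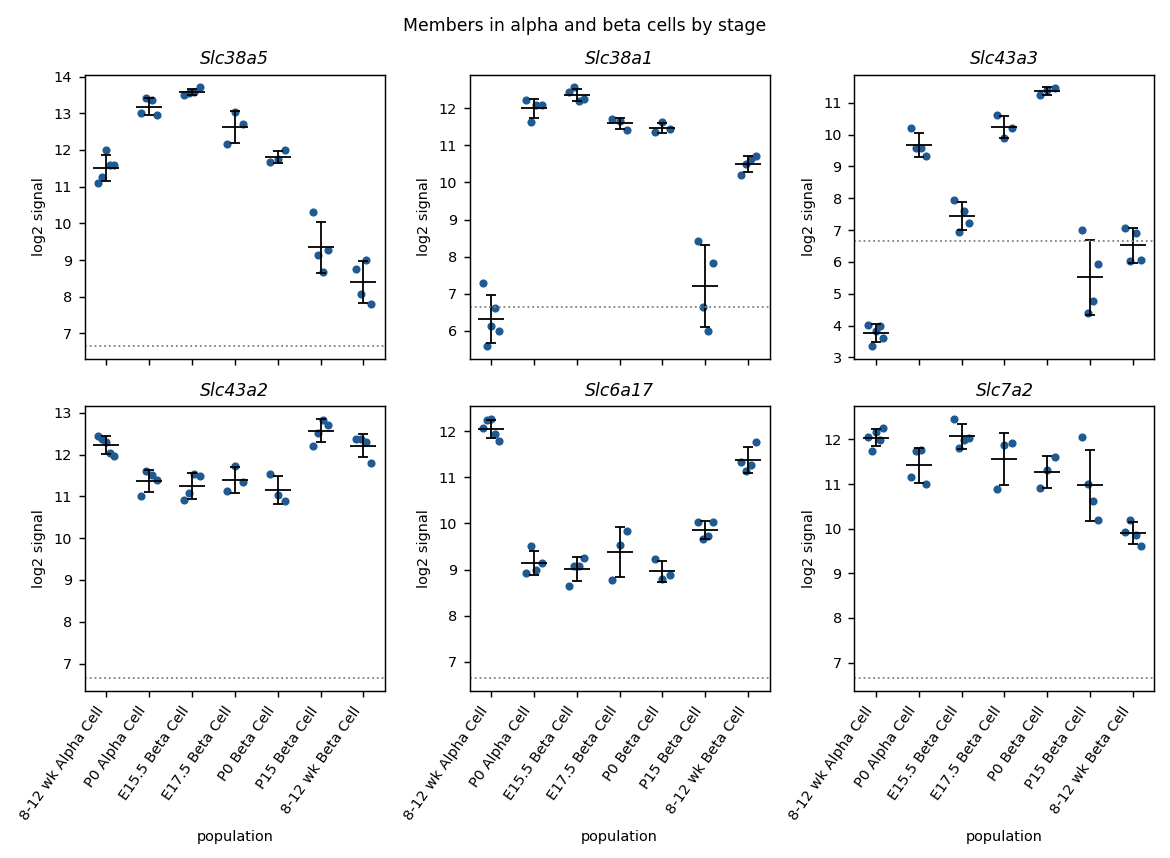
Log2 signal of 6 members in alpha cell arrays (8-12 wk and P0) and in beta cell arrays of 5 stages (points, 3 to 5 arrays per population; bars, mean and SD; dotted line, the limit of 100). Slc38a5 is lower at each later beta cell stage (mean 13.58 at E15.5 and 8.40 at 8-12 wk), and Slc38a1 is lowest in 8-12 wk Alpha Cell (6.32) and P15 Beta Cell (7.22) arrays.

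At P0, 2 members were higher in P0 Alpha Cell than in P0 Beta Cell arrays (6.39% of genes) and 6 were lower (13.7% of genes). The median difference was -0.11 for the members and -0.07 for all genes. Slc1a1 was at 7.27, 7.07, 7.01 and 7.11 in alpha arrays against 5.48, 5.93 and 5.68 in beta arrays (difference 1.42 ± 0.36; limma, adjusted p = 0.00138). Slc38a5 was at 13.0001, 13.41, 13.35 and 12.96 against 11.67, 11.77 and 11.99 (difference 1.37 ± 0.42). Every alpha array was above every beta array in both genes. Slc1a1 was not tested with the mean of its probes. Slc43a3 was at 10.19, 9.58, 9.57 and 9.31 in alpha arrays against 11.25, 11.39 and 11.46 in beta arrays (difference -1.71 ± 0.37). Endothelial markers averaged 9.42 in alpha and 10.91 in beta arrays, and mesenchyme markers 11.26 and 12.55. Slc1a5 was at 7.85, 6.82, 7.08 and 6.69 against 9.14, 8.60 and 8.62 (difference -1.68 ± 0.32). Slc7a7 was at 8.30, 6.73, 6.77 and 7.43 against 8.55, 8.61 and 8.70 (difference -1.31 ± 0.31), beside leukocyte markers of 8.14 and 10.57. The part of these markers was not tested, and for Slc7a7 the methods' t-test gave an adjusted p of 0.0673. Slc43a1 was at 5.31, 5.04, 5.25 and 4.61 against 6.27, 6.08 and 6.33, all under the limit of measurement (difference -1.17 ± 0.26). Slc1a3, with overlapping arrays, was lower by 1.59 and Slc6a4, under the limit of measurement in every array of both groups, by 1.003. For Slc1a3 the mean of its probes gave -0.39 and the methods' t-test an adjusted p of 0.0709, and Slc6a4 did not pass without P0 Beta Cell replicate 2 (-0.75).

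In adults 3 members were higher in 8-12 wk Alpha Cell than in 8-12 wk Beta Cell arrays (5.61% of genes) and 8 were lower (12% of genes). The 43 members had a median difference of -0.13, beside 0.01 over all genes. Slc38a5 was at 11.10, 11.27, 12.003, 11.59 and 11.59 in alpha arrays against 8.75, 8.07, 8.99 and 7.79 in beta arrays (difference 3.11 ± 0.37; limma, adjusted p = 7.39e-09). Slc7a2 was at 12.06, 11.74, 12.16, 11.998 and 12.25 against 9.93, 10.20, 9.86 and 9.60 (difference 2.14 ± 0.27). Slc7a6, a light subunit that trades cationic for neutral amino acids, was at 10.55, 10.25, 10.02, 10.31 and 10.32 against 9.10, 9.10, 9.18 and 9.12 (difference 1.16 ± 0.14). These 3 were picked for arrays that did not overlap.

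Slc38a1 was at 7.29, 5.58, 6.12, 6.61 and 6.005 in 8-12 wk Alpha Cell arrays against 10.21, 10.49, 10.63 and 10.70 in 8-12 wk Beta Cell arrays (difference -4.19 ± 0.28; limma, adjusted p = 1.33e-15). Slc43a3 was at 4.004, 3.34, 3.83, 3.98 and 3.62 against 7.07, 6.04, 6.91 and 6.07 (difference -2.76 ± 0.33). Slc6a19 (B0AT1), the neutral amino acid carrier of gut and kidney epithelia, was at 5.66, 4.46, 4.16, 3.94 and 3.96 against 7.10, 5.85, 7.42 and 6.46 (difference -2.27 ± 0.31). Slc6a15 (B0AT2) was at 4.64, 3.54, 3.97, 4.42 and 3.92 against 5.68, 6.87, 6.12 and 6.67 (difference -2.24 ± 0.21). These 4 were picked for arrays that did not overlap. Slc6a15 and Slc6a19 were tested only because adult beta cell arrays lay above the limit of measurement, so these 2 differences are a description. The 8 lower members include both. Slc36a2, Slc6a9, Slc1a1 and Slc7a7 were lower by 2.09, 1.70, 1.42 and 1.11, where Slc7a7 alone had arrays that met at 8.53 in alpha and 8.53 in beta cells. Leukocyte markers were at 5.86 to 6.43 in alpha and 11.72 to 12.46 in beta arrays, with 3 and 11 of 11 genes above 100, and acinar markers averaged 9.42 and 12.68. In a setting chosen after the data were seen, P15 Beta Cell arrays took the place of the adult ones. Leukocyte markers averaged 8.22 in them, with arrays from 7.29 to 9.81. There 10 members passed, of which 5 were among the 11. The alpha arrays are the same in both settings, and the share of all genes that passed with P15 is not given. Slc38a5 (2.16), Slc7a2 (1.07) and Slc7a6 (1.05) were again higher in alpha cells, and Slc43a3 (-1.77) and Slc6a19 (-1.003) lower. The other 6 did not pass, Slc38a1 (-0.90), Slc6a15 (-0.10), Slc6a9 (-0.38), Slc1a1 (-0.03), Slc7a7 (0.12) and Slc36a2 (0.15), and the last 2 had the opposite sign. With the mean of their probes Slc6a9 was at -0.81 and Slc7a7 at -0.997.

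Whether the change between P0 and 8-12 wk differed between alpha and beta cells was tested as an interaction. In the difference of the changes, alpha minus beta, 6 of the 43 members were positive (11.6% of genes) and 6 negative (11.8% of genes). The median difference was 0.08 for the members and 0.07 for all genes. The comparisons above share their arrays with this one. Slc38a1 had the largest difference, with a change of -5.69 in alpha cells and -0.96 in beta cells (alpha minus beta -4.72 ± 0.42; limma, adjusted p = 3.93e-11). Only 1 of its 2 tested probes passed. The changes of Slc1a1 had opposite signs, with -1.47 in alpha cells and 1.37 in beta cells (alpha minus beta -2.84 ± 0.48). Slc6a19 changed by -0.45 in alpha and 1.78 in beta cells (alpha minus beta -2.23 ± 0.48), and Slc6a9 by -1.77 and 0.39 (alpha minus beta -2.16 ± 0.47). The arginine carrier Slc7a2 changed by 0.62 in alpha and -1.38 in beta cells (alpha minus beta 1.998 ± 0.40). Slc38a5 fell in both, by 1.67 in alpha and 3.41 in beta cells (alpha minus beta 1.74 ± 0.56). Slc6a17 rose in both, by 2.91 in alpha and 2.41 in beta cells, and the difference of 0.50 ± 0.26 did not pass (adjusted p = 0.138 by limma). Slc43a3 fell in both, by 5.91 and 4.85 (alpha minus beta -1.06 ± 0.49, adjusted p = 0.0919 by limma). Leukocyte markers averaged 6.09 in 8-12 wk Alpha Cell and 8.14 in P0 Alpha Cell arrays, and 12.08 in 8-12 wk Beta Cell and 10.57 in P0 Beta Cell arrays, and their part was not tested. The other 6 members that passed were Slc36a2, Slc6a15, Slc1a5, Slc43a1, Slc1a3 and Slc7a10. Slc6a15 and Slc6a19 were tested only through 8-12 wk Beta Cell arrays, so their values are a description. All 4 population means of Slc6a15 and Slc43a1 lay under the limit of measurement, and 3 of 4 did so for Slc6a19, Slc36a2, Slc1a3 and Slc7a10, so these sizes are not exact. Slc7a10 was at 0.75 without P0 Beta Cell replicate 3, and Slc1a3 at 0.56 with the mean of its probes. Slc1a1 was not tested with the mean of its probes.

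**Figure D4:**
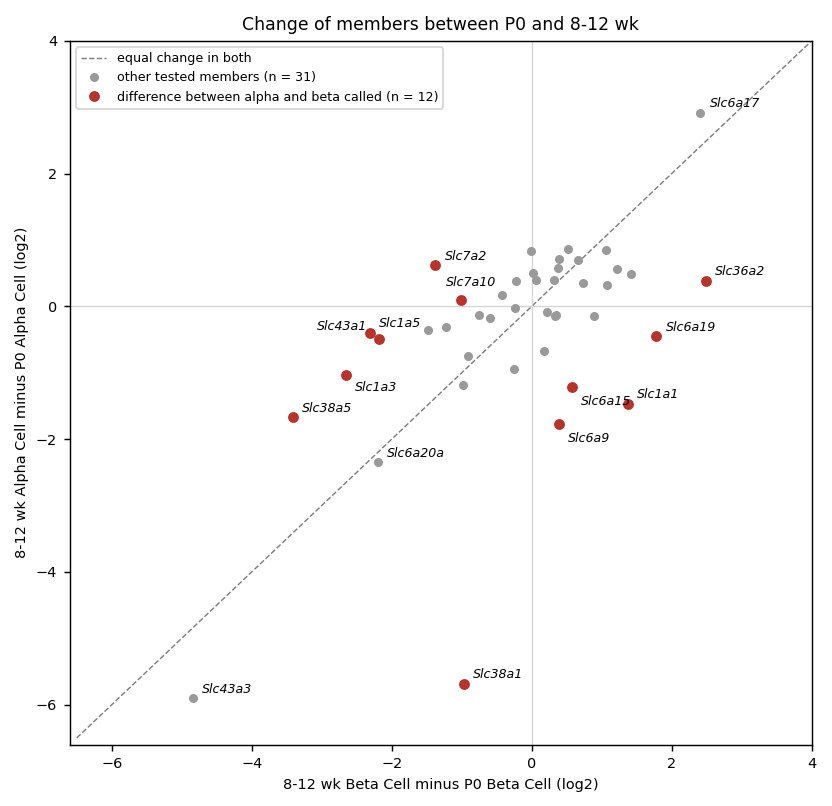
Change of the 43 tested members between P0 and 8-12 wk in alpha cells (vertical axis) and beta cells (horizontal axis), both as log2 differences of 8-12 wk minus P0. Red points are the 12 members whose change differed between the cell types, and the dashed line marks equal change. Slc38a1, at -5.69 in alpha and -0.96 in beta cells, lies farthest from it.

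The 8-12 wk Duct Cell arrays differed from 8-12 wk Beta Cell arrays in 21 members, 8 higher (15.7% of genes) and 13 lower (17.1% of genes). Over the 43 the median difference was -0.23, and over all genes tested -0.05. Slc7a14 was at 3.88, 4.01, 4.18 and 3.56 in duct arrays against 11.23, 11.67, 11.49 and 11.48 in beta arrays (difference -7.56 ± 0.18; limma, adjusted p = 3.76e-30). Slc6a17 was at 5.35, 5.21, 5.17 and 5.28 against 11.33, 11.14, 11.26 and 11.77 (difference -6.12 ± 0.18). Slc7a2 was at 6.36, 6.46, 6.47 and 6.96 against 9.93, 10.20, 9.86 and 9.60 (difference -3.34 ± 0.28). All duct arrays of Slc7a14 and Slc6a17 lay under the limit of measurement. Slc3a1 (rBAT), the heavy subunit of cystine and cationic amino acid exchange in kidney, was at 7.97, 8.02, 7.94 and 7.72 in duct arrays against 10.61, 11.07, 10.71 and 10.71 in beta arrays (difference -2.86 ± 0.15). These 4 genes were picked for groups that did not overlap. Slc6a15, Slc36a1, Slc7a8, Slc43a2, Slc6a19, Slc36a2, Slc7a5, Slc38a10 and Slc36a4 were lower by 1.13 to 2.30. Slc6a15 and Slc6a19, which the 13 lower members include, were tested only because adult beta cell arrays lay above the limit of measurement. For Slc36a2 the methods' t-test gave an adjusted p of 0.0906, and Slc38a10 was at -0.98 with the mean of its probes.

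The higher members in duct cells were led by Slc43a3, at 8.03, 9.06, 8.14 and 8.40 in duct arrays against 7.07, 6.04, 6.91 and 6.07 in beta arrays (difference 1.89 ± 0.34), and Slc38a1, at 12.65, 11.97, 12.09 and 12.38 against 10.21, 10.49, 10.63 and 10.70 (difference 1.77 ± 0.29). Slc38a2 (SNAT2), the carrier that cells raise when short of amino acids, was at 12.65, 12.56, 12.55 and 12.49 against 11.22, 11.04, 11.01 and 10.97 (difference 1.504 ± 0.11; 0.90 with the mean of its 3 tested probes, of which 1 passed). Slc7a3, a cationic carrier, was at 6.23, 6.42, 7.0001 and 6.50 against 5.93, 4.37, 5.64 and 4.49 (difference 1.43 ± 0.25), and only 1 of these arrays, through which it entered the test, was above the limit of measurement. These 4 genes were picked for groups that did not overlap, and the 8 higher members include Slc7a3. Slc38a3, Slc1a5, Slc7a7 and Slc6a4 were higher by 1.04 to 1.33. Both population means of Slc6a4 lay under the limit of measurement. Slc38a3 was at 0.62 with the mean of its probes and had an adjusted p of 0.0582 in the methods' t-test, and Slc7a7 was at 0.82 without duct replicate 1. Leukocyte markers averaged 12.27 in duct and 12.08 in beta arrays, and acinar markers 13.28 and 12.68. Their part was not tested. Against P15 Beta Cell arrays, a setting chosen after the data were seen, 21 members passed as well, and 16 of them were shared. The duct arrays are the same in both settings, and the share of all genes that passed against P15 is not given. The 5 that did not pass were Slc36a4 (-0.95), Slc6a19 (-0.31), Slc6a15 (-0.17), Slc6a4 (0.86) and Slc36a2 (0.71), the last with the opposite sign.

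**Figure D5:**
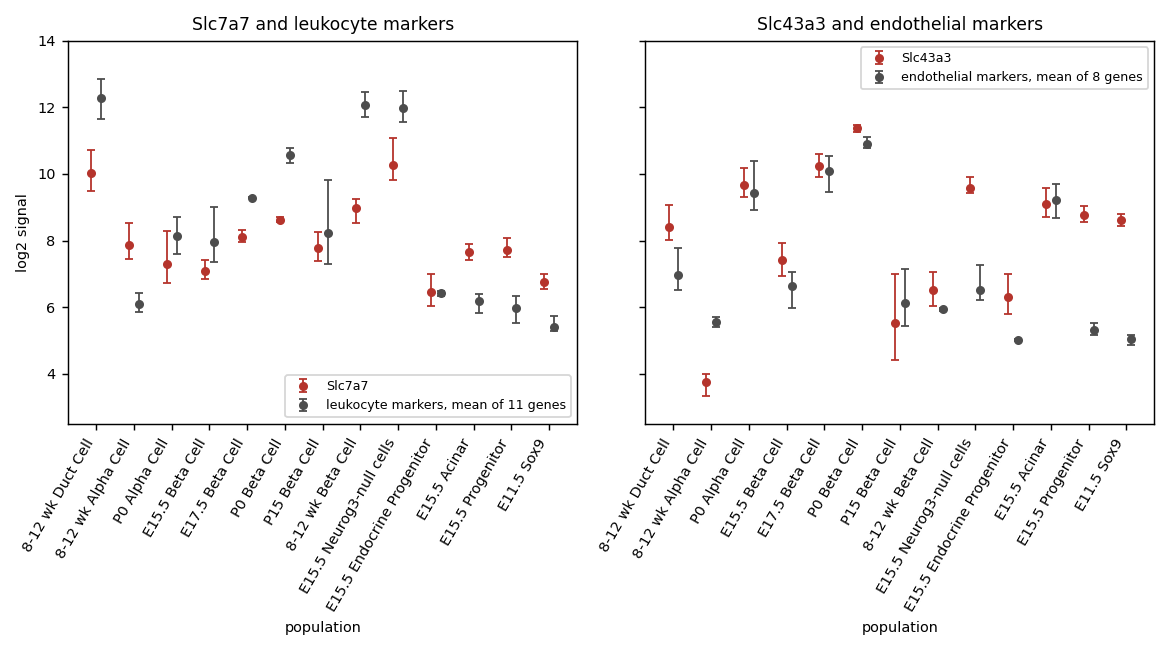
Log2 signal of Slc7a7 with the mean of 11 leukocyte markers (left) and of Slc43a3 with the mean of 8 endothelial markers (right) in the 13 populations (points, means; bars, lowest and highest array). Slc7a7 is highest in Neurog3-null (10.27) and duct cells (10.04), where the leukocyte markers are at 11.98 and 12.27, and Slc43a3 is highest in P0 Beta Cell arrays (11.37), where the endothelial markers are at 10.91. Mesenchyme markers, not drawn, are at 12.55 in P0 Beta Cell arrays, and Slc43a3 followed them about as closely (r = 0.67, beside 0.70 for endothelial markers).

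By role, the heavy subunit Slc3a2 passed in no comparison, and Slc3a1 passed between duct and beta cells only. Slc7a5 (LAT1), the main light subunit for large neutral amino acids, had its highest mean in acinar cells (12.04) and its lowest in duct cells (9.74). All 9 members of family Slc38 were measured, and their ranges of means ran from 1.43 for Slc38a10 to 6.996 for Slc38a5. In family Slc6 the genes above 100 in at least 1 array were Slc6a4, Slc6a6, Slc6a8, Slc6a9, Slc6a13, Slc6a15, Slc6a17, Slc6a19 and Slc6a20a. The dopamine carrier Slc6a3, the noradrenaline carrier Slc6a2, the glycine carrier Slc6a5, the proline carrier Slc6a7, the GABA and betaine carriers Slc6a11 and Slc6a12, the glutamate carriers Slc1a6 and Slc1a7 and the cystine and glutamate exchanger Slc7a11 stayed under 100 in all 48 arrays. The rest of the 20 members that did so were Slc36a1os, Slc36a3, Slc6a14, Slc6a16, Slc6a18, Slc6a19os, Slc6a20b, Slc6a21, Slc7a12, Slc7a13 and Slc7a15.

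Other genes of the pathways were read from 2 lists. Of 13 genes that make transmitters or load them into vesicles, 11 had a tested probe, and 7 of these were higher (10.7% of all genes) and 0 lower (11.8%) in endocrine progenitors than in E15.5 Progenitor cells (median 1.09). In Neurog3-null cells 0 were higher (18.7% of all genes) and 5 lower (14.2%) than in endocrine progenitors (median -0.95). Gad1, which makes GABA, averaged 8.68 in endocrine progenitors and 4.001 in E15.5 Progenitor cells (difference 4.68 ± 0.34). In postnatal against fetal beta cells 5 were higher (6.37% of all genes) and 1 lower (14.8%; median 0.64). In adult alpha against adult beta cells 0 were higher (5.61% of all genes) and 6 lower (12%; median -1.11). Tph1, which carries out the first step to serotonin, averaged 5.81 in 8-12 wk Alpha Cell and 12.33 in 8-12 wk Beta Cell arrays (difference -6.52 ± 0.30), and Tph2 averaged 4.93 and 9.77 (difference -4.85 ± 0.27). In the other beta cell populations Tph1 was far lower, at 5.35 (E15.5), 6.73 (E17.5), 7.20 (P0) and 6.59 (P15), whereas Tph2 was at 9.79 at P15. Leukocyte markers averaged 12.08 in 8-12 wk Beta Cell and 8.22 in P15 Beta Cell arrays, and their part was not tested. The serotonin carrier Slc6a4 was under the limit of measurement in 8-12 wk Alpha Cell (4.24) and 8-12 wk Beta Cell arrays (4.12). Its means above that limit were those of E11.5 Sox9 (8.29), E15.5 Acinar (8.49), E15.5 Neurog3-null (7.52) and E17.5 Beta Cell (6.67) arrays.

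Of 18 genes of the amino acid response, which cells switch on through Atf4 when amino acids run short, 1 was higher (10.7% of all genes) and 4 were lower (11.8%) in endocrine progenitors than in E15.5 Progenitor cells (median -0.60). In Neurog3-null cells 7 were higher (18.7% of all genes) and 1 lower (14.2%) than in endocrine progenitors (median 0.39). Phgdh, the first enzyme of serine synthesis, averaged 10.15 in endocrine progenitors and 12.94 in E15.5 Progenitor cells (difference -2.79 ± 0.47). Asns, which makes asparagine, averaged 12.82 in Neurog3-null cells and 10.33 in endocrine progenitors (difference 2.49 ± 0.27). Sesn2, which senses leucine, went the other way, with 7.42 in Neurog3-null cells and 9.89 in endocrine progenitors (difference -2.48 ± 0.24). The mean of the list was 10.52 in Neurog3-null cells, 9.78 in endocrine progenitors and 10.40 in E15.5 Progenitor cells. Between duct and adult beta cells 4 of the 18 were higher (15.7% of all genes) and 1 lower (17.1%; median 0.77), and the 4 are close to that share.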

How the data were processed

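RNA of 48 sorted samples was amplified and hybridized to 1-colour Affymetrix mouse expression arrays. The deposited values are log2 signals that the authors made by RMA in R 2.11.1, which subtracts background, quantile normalizes and summarizes probes, so that a shift shared by most genes is removed. Of 45101 probes, 34958 carried 1 gene symbol in the platform annotation, 932 carried several and were not named, and 9211 carried none. No column of fold changes or p-values was used.

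Probes above 100 on the linear scale in at least 1 array (32078) were fitted with limma 3.58.1 in R 4.3.3 as 13 population means with 1 shared spread (35 residual and 3.55 prior degrees of freedom), p-values were Benjamini-Hochberg adjusted over all of them, and calls needed an adjusted p under 0.05 and a log2 difference of at least 1. The code was tested on simulated data. Errors are SE. The number of arrays limits the precision, and p-values measure the spread between pooled samples, which may in part be technical. A gene was read from its brightest probe. Values in every array are given for up to 4 called members per direction with the largest differences and no overlap, for Slc6a20a and for a few others that were chosen after their values were seen. The members and lists were chosen with earlier results of these data known. Figures were drawn in Python 3.11.15 with matplotlib 3.10.9.

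Replicate numbers of the labels were checked for pairing by the correlation of deviations from population means. Between E15.5 Progenitor and E11.5 Sox9 arrays all 3 pairs were over 0.1 (0.11 to 0.15), and with the replicate block 3603 probes passed there, against 3630 without it. Of all 50 pairs in the 10 comparisons 19 were over 0.1, with a range of -0.42 to 0.30, and no other comparison had all its pairs over 0.1. Alternatives were the methods' Student test in place of limma, other filters, renormalization, array weights, the arrays of a comparison alone, the mean of a gene's probes, the replicate block and leaving out each array. Promoters were those of RefSeq for GRCm38.p6, matched by gene.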

Additional observations from a re-analysis of the deposited data

Results flagged for a closer look

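Of 71 groups of 4 or 5 arrays of the members described, 2 held an array set apart from the others, where chance sets apart about 1 in 20 groups. Slc43a2 was at 11.80 in 8-12 wk Beta Cell replicate 4, below the 12.29 to 12.37 of the other arrays. Slc1a3 was at 4.80 in P15 Beta Cell replicate 1, above the 4.19 to 4.24 of the others, all under the limit of measurement.

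The change between P0 and 8-12 wk differed between alpha and beta cells in 12 members (interaction in limma, alpha minus beta). It was more negative in alpha cells for Slc38a1 (-4.72 ± 0.42, adjusted p = 3.93e-11), Slc1a1 (-2.84 ± 0.48, adjusted p = 1.33e-05), Slc6a9 (-2.16 ± 0.47, adjusted p = 0.000386) and Slc36a2 (-2.10 ± 0.56, adjusted p = 0.00329). The values of Slc6a19 (-2.23 ± 0.48) and Slc6a15 (-1.79 ± 0.33) were more negative in alpha cells as well. It was more positive in alpha cells for Slc7a2 (2.00 ± 0.40, adjusted p = 0.000176), Slc1a5 (1.91 ± 0.43, adjusted p = 0.00065), Slc38a5 (1.74 ± 0.56, adjusted p = 0.0149), Slc43a1 (1.70 ± 0.35, adjusted p = 0.00024), Slc1a3 (1.62 ± 0.45, adjusted p = 0.00475) and Slc7a10 (1.11 ± 0.29, adjusted p = 0.0027). All 4 population means behind the values of Slc6a15 and Slc43a1 lay under the limit of measurement, and 3 of the 4 did so for Slc6a19, Slc36a2, Slc1a3 and Slc7a10, so that these sizes are not exact. Slc6a15 and Slc6a19 were tested only through 8-12 wk Beta Cell arrays, so their values are a description. Without P0 Beta Cell replicate 3 Slc7a10 was at 0.75, under the 2-fold limit.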

How the results depend on the processing

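Leaving out each array in turn gave 10 to 11 members for E15.5 Progenitor minus E11.5 Sox9, 7 to 9 for acinar minus progenitor, 15 to 18 for endocrine progenitor minus progenitor, 19 to 21 for Neurog3-null minus endocrine progenitor, 7 to 8 for E15.5 beta minus endocrine progenitor, 13 to 14 for postnatal minus fetal beta, 9 to 11 for adult minus P0 alpha, 7 to 9 for P0 alpha minus beta, 11 to 13 for adult alpha minus beta, 19 to 22 for duct minus adult beta and 12 to 15 for the interaction. Of the 139 called differences of members, 122 kept their call without any 1 array and 17 lost it at least once, by size or adjusted p. These were, with the array left out that gave the value, in endocrine progenitor minus progenitor cells Slc6a4 (-0.67, Progenitor 2; also Endocrine Progenitor 1 and 2), Slc7a3 (-0.91, Progenitor 3; also Endocrine Progenitor 2), Slc6a20a (1.18, Endocrine Progenitor 1) and Slc1a1 (-1.03, Endocrine Progenitor 2). They were Slc1a3 in acinar cells (1.10, Acinar 3; also Progenitor 3), Slc6a20a (-0.91, Neurog3-null 1; also Endocrine Progenitor 1 and 3) and Slc6a13 (0.86, Neurog3-null 3) in null cells, Slc43a3 (0.88, Endocrine Progenitor 2; also Endocrine Progenitor 1 and Beta Cell 1 and 3) and Slc7a14 (0.93, Endocrine Progenitor 3) in E15.5 beta cells, and Slc6a8 in postnatal beta cells (0.95, P15 4; also 6 others). They were also Slc1a3 in adult minus P0 alpha cells (-0.69, P0 Alpha 1, also adult Alpha 3 and 4) and Slc7a10 in the interaction (0.75, P0 Beta 3). Slc6a4 at P0 was another (-0.75, P0 Beta 2, also P0 Alpha 1, 2 and 3). In duct cells they were Slc1a5 (0.99, adult Beta 4), Slc7a7 (0.82, Duct 1; also Duct 4 and adult Beta 4), Slc6a4 (0.91, Duct 4; also Duct 3) and Slc36a4 (-0.99, Duct 4). With the mean of a gene's probes 41 members were tested, of which 3 passed between acinar and progenitor cells (7 with the brightest probe) and 8 between postnatal and fetal beta cells (14 with the brightest probe), and the cause was not tested. P15 minus E15.5 beta cells alone, which uses fewer arrays, gave 9. All other counts were within 1.5 times those reported. Of the 139 differences, 28 of the 132 tested were lost with the mean of a gene's probes. Those not tested there were of Slc1a1, whose probe mean was above 100 in no array. The methods' t-test lost 14 of the 127 tested, and array weights lost 5. The arrays of a comparison alone and a second quantile normalization lost 1 each. With signals above 100 in at least 3 arrays 129 were tested and all 129 kept. Without a filter all 139 did. None of these changed a sign. With P15 in place of 8-12 wk Beta Cell arrays, chosen after the data were seen, 11 of 32 were lost, and 3 had the opposite sign, Slc36a2 (0.15) and Slc7a7 (0.12) in adult alpha cells and Slc36a2 (0.71) in duct cells. In P15 minus E15.5 Beta Cell alone 6 of 14 were lost. With the replicate block the counts were 10, 7, 18, 20, 8, 14, 11, 8, 12, 21 and 13 in the order above. It changed no call among the 139. Among dim members the signal near 100 limits how exactly a difference is known.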
